A study of Mus musculus with 2 samples.

Results

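Proliferating lung macrophages were taken as the cells with at least 8 unique molecular identifiers (UMIs, each standing for 1 captured RNA molecule) summed over Mki67, Top2a, Birc5, Ube2c, Pclaf, Cdk1, Ccna2 and Cenpf. By this rule 159 of 4570 cells were cycling, which is 3.48% (exact 95% Clopper-Pearson interval 2.97 to 4.05%). The cells were thus chosen by their values of these 8 genes, and the levels of cycle genes in them are given as a description. Intervals here and below cover counting error only.

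The cells came from the lungs of irradiated CD45.1+CD45.2+ IM-DTR hosts, which carry a diphtheria toxin receptor meant to allow depletion of interstitial macrophages. Hosts of the control pool had received CD45.1-CD45.2+ Tgfbr2 fl/fl marrow, and hosts of the Tgfbr2-KO pool marrow of LyzM-Cre Tgfbr2 fl/fl donors, likewise CD45.1-CD45.2+, whose Cre acts from the lysozyme locus and so in myeloid cells in general. All mice received 50 ng of diphtheria toxin 10 days before sacrifice, and there was no group without toxin or without irradiation. Donor cells were sorted as Ly6G-, SiglecF-, CD11b+, CD64+ and low in side scatter, from 5 mice per genotype. Each pool was labelled with 1 hashtag antibody before all cells shared 1 library, so the mice of a pool cannot be told apart, there is 1 pool per genotype, and no significance test was made. For the age and sex of the mice the labels used here give nothing.

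The pool of each cell was read from the oligonucleotide of its hashtag antibody. The 2 sequences, which decide every comparison between the genotypes, were as follows.
B0301, control pool: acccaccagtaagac
B0303, Tgfbr2-KO pool: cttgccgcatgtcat

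Interstitial macrophages live in the lung tissue outside the airspaces, and at steady state some are renewed by local division and some from blood monocytes. When the niche is emptied, monocytes enter it, differentiate and can divide. TGF-beta, read through the receptor encoded by Tgfbr2, is known to restrain the division of many cell types and to shape the identity of tissue macrophages. A dividing cell copies its DNA in S phase, which uses the MCM helicase, PCNA and nucleotide synthesis enzymes, and builds a mitotic spindle in G2 and M phase, which uses cyclin B, kinetochore proteins and kinesins.

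The 8 genes cover that sequence. Pclaf encodes a PCNA-binding factor of replication, Cdk1 and Ccna2 encode a kinase and a cyclin that act from S phase to mitosis, and Top2a encodes the topoisomerase that untangles copied DNA. Mki67 encodes a protein that coats mitotic chromosomes, Cenpf a kinetochore protein, Birc5 a subunit of the chromosomal passenger complex, and Ube2c the ubiquitin-conjugating enzyme of the anaphase-promoting complex. Promoters of G2/M genes often hold CCAAT boxes and a cell cycle genes homology region (CHR), and promoters of S phase genes often hold E2F sites. RefSeq promoters (build GRCm38.p6) were matched for 7 of the 8 genes, and Ccna2 was not matched. For 3 genes that differ in how their level moved with phase in these cells, the 250 bases before the start site are shown, 5′ to 3′ on the gene's strand. Capitals mark CCAAT, the CHR letters TTTGAA or TTCGAA, and the E2F letters TTTCCCGC, TTTGGCGC, TTTCGCGC or TTTGCCGC, each searched on both strands.
Ube2c, chr2:164769679-164769928, plus strand: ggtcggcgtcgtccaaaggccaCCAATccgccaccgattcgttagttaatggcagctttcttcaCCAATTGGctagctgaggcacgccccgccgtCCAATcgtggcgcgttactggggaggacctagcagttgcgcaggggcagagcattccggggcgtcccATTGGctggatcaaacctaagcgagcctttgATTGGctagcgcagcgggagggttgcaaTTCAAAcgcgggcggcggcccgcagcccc
Cdk1, chr10:69352913-69353162, minus strand: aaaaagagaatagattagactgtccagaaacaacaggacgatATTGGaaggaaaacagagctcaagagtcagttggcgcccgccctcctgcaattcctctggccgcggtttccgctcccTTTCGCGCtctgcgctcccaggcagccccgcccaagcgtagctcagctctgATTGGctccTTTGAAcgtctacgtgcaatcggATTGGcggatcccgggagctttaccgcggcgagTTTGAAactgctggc
Pclaf, chr9:65890073-65890322, plus strand: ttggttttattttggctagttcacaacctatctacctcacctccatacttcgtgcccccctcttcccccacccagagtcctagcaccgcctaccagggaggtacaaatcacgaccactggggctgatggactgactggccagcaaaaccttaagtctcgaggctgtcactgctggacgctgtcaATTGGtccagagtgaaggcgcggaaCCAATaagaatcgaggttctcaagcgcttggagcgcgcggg

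The Ube2c window held 6 CCAAT matches, of which 1 pair overlaps, and 1 CHR match. The Cdk1 window held 3 CCAAT matches, 2 CHR matches and 1 E2F match, and the Pclaf window 2 CCAAT matches with neither of the other motifs. At least 1 CCAAT match stood in 6 of the 7 windows and at least 1 CHR match in 4 of 7, while 33.8% and 17.1% of all 32851 promoter windows of this length hold them. An E2F match stood in 1 of 7 windows and in 1.86% of all windows. A match is a description of the letters and not a measured binding site.

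Cycling cells made up 43 of 1896 control cells (2.27%, 1.65 to 3.04%) and 116 of 2674 Tgfbr2-KO cells (4.34%, 3.60 to 5.18%). The Tgfbr2-KO share was 1.91 times the control share (1.34 to 2.78). By hashtag, 73.0% of the cycling cells were Tgfbr2-KO cells (65.3 to 79.7%), against 58.0% of the other cells. Tgfbr2-KO cells held more UMIs per cell, with medians of 10091 against 7709 in the cells outside the rule, and the reason was not tested. Because the rule counts raw UMIs, the shares were also taken after each cell was thinned to 3000 UMIs with a threshold of 3. This left out 80 control and 83 Tgfbr2-KO cells. The shares were then 2.15% (39 of 1816) and 4.28% (111 of 2591), a ratio of 1.99. Over the thresholds, depths and cell filters tried, the ratio lay between 1.73 and 2.25. With 1 pool per genotype, a difference between genotypes and a difference between the mice or sorts of these 2 pools cannot be told apart.

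The summed UMIs of the 8 genes ran from 9 to 107 in control cycling cells with a median of 37. In Tgfbr2-KO cycling cells they ran from 8 to 151 with a median of 42. Most members stood well above the threshold: 35 of 43 and 94 of 116 had at least 20 UMIs. Of the other cells, 84.8% of the control and 78.6% of the Tgfbr2-KO cells had none. Just inside the threshold, at 8 to 11 UMIs, lay 3 control and 11 Tgfbr2-KO members, and just outside it, at 4 to 7 UMIs, lay 12 control and 60 Tgfbr2-KO cells. The median member had UMIs of 7 of the 8 genes, and no other cell had more than 5. In 4 members, 2 of each pool, all rule UMIs came from Mki67, and without them the ratio of the shares was 1.97.

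**Figure D1:**
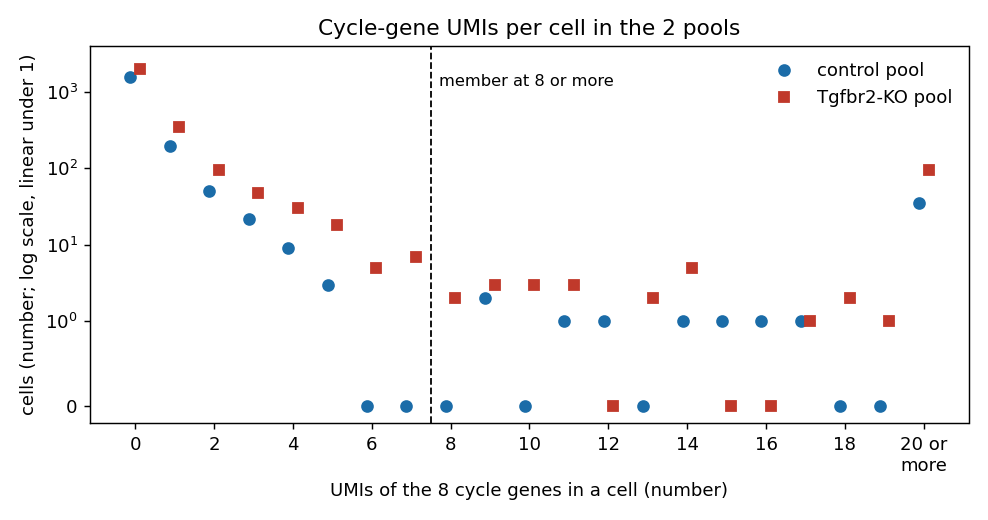
Number of cells (vertical axis, log scale that is linear under 1) by the UMIs of the 8 cycle genes in a cell (horizontal axis), for the control pool (circles) and the Tgfbr2-KO pool (squares). The dashed line is the threshold of 8 UMIs; cells thin out towards it from 0, and 35 control and 94 Tgfbr2-KO cells stand at 20 or more.

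Cycling cells held more RNA than the other cells. Their median was 15077 UMIs in the control pool and 16464.5 in the Tgfbr2-KO pool, against 7709 and 10091 in the other cells, which is 1.96 and 1.63 times as many. Their median number of genes was 3568 and 3864, against 2206 and 2682. The share of mitochondrial UMIs was close to that of the other cells, with medians of 2.64% against 2.76% in the control pool and 2.31% against 2.25% in the Tgfbr2-KO pool. The share of the wrong hashtag among hashtag UMIs was below that of the other cells, with medians of 7.99% against 10.0% and 2.78% against 3.49%. Doublets of cells from the same pool carry 1 hashtag and cannot be seen this way, and their part in the higher UMI counts was not tested.

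The cycling cells carried macrophage genes. At least 2 UMIs of the complement genes C1qa, C1qb and C1qc were found in 42 of 43 control and 107 of 116 Tgfbr2-KO members. After thinning to 3000 UMIs these shares were 90.7% and 88.8%, against 95.1% and 84.0% of the other cells and 15.2% of the cells of a monocyte-like cluster. Of the 10 members under 2 C1q UMIs, 1 was a control cell, and 7 were Tgfbr2-KO cells nearest a cluster led by Ly6i and Cxcl9. Csf1r, the receptor for the growth factor CSF1, stood at 408 and 316 UPM (UMIs per 1000000 gene UMIs, summed over the cells of a group) in members of the control and Tgfbr2-KO pools. In their other cells it stood at 582 and 458 UPM. Ly6c2, which marks classical monocytes, had a UMI in 0 of 43 control and 4 of 116 Tgfbr2-KO members at 3000 UMIs (3.45%), against 1.75% and 14.3% of the other cells and 76.2% of the monocyte-like cluster. At full depth 1 control and 7 Tgfbr2-KO members had a UMI of Ly6c2. At 3000 UMIs 0 control and 0 Tgfbr2-KO members had 2 UMIs of T and NK cell genes or of neutrophil genes, with upper exact bounds of 8.22% and 3.13%. At full depth 0 and 5 members had 2 UMIs of the T and NK cell list, and 1 and 23 of the neutrophil list, most of whose UMIs were of Csf3r.

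Genes of other cell types summed to low levels in the members, and the defining genes of several were at 0. Of 12 T and NK cell genes, 9 were at 0 in all members, Cd3e, Trac and Nkg7 among them, and the list summed to 1.55 and 10.1 UPM. Of 10 neutrophil genes 4 were at 0, Ly6g among them, with 17.0 and 41.8 UPM in sum, against 59.7 and 149 UPM in the other cells. Of 9 B and plasma cell genes 5 were at 0, Cd79a and Ms4a1 among them. They summed to 178 and 199 UPM, above the 141 and 156 UPM of the other cells. Most of it came from Ighm, with 147 and 177 UPM in members. Of 11 alveolar macrophage genes 5 were at 0, Marco and Car4 among them, with 99 and 97.6 UPM against 198 and 182 UPM in the other cells. Of 12 structural lung cell genes 1 was at 0, with 124 and 40.4 UPM against 73.5 and 142 UPM, and of 12 progenitor or erythroid genes 6 were at 0, with 37.1 and 23.1 UPM against 10.9 and 16.2 UPM. Genes of dendritic cells, of which none of 11 was at 0 in all members, summed to 161 and 163 UPM, against 171 and 180 UPM. The part of any of these cells in the results was not tested.

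Phase was read from 45 S phase genes and 52 G2/M genes, none of which the rule used, by the G2/M share of their UMIs: under 0.4 was S-leaning, above 0.6 G2/M-leaning. In both pools about the same share leaned to G2/M, 28 of 43 control members (65.1%, 49.1 to 79.0%) and 77 of 116 Tgfbr2-KO members (66.4%, 57.0 to 74.9%). S-leaning were 3 control members (6.98%, 1.46 to 19.1%) and 15 Tgfbr2-KO members (12.9%, 7.42 to 20.4%), and 12 (27.9%) and 24 (20.7%) lay between. The intervals of the pools overlapped in each of the 3 classes. These classes are ranges of a continuous share, and 7 control and 29 Tgfbr2-KO members lay within 0.05 of a cut. The classes do not measure phase, so the S-leaning share is not the share of members in S phase. The median member had 148 (control) and 167 (Tgfbr2-KO) UMIs of phase genes, against 9 and 12 in the other cells. Most of the 8 rule genes peak in G2 and mitosis, so the rule itself favours cells late in the cycle.

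**Figure D2:**
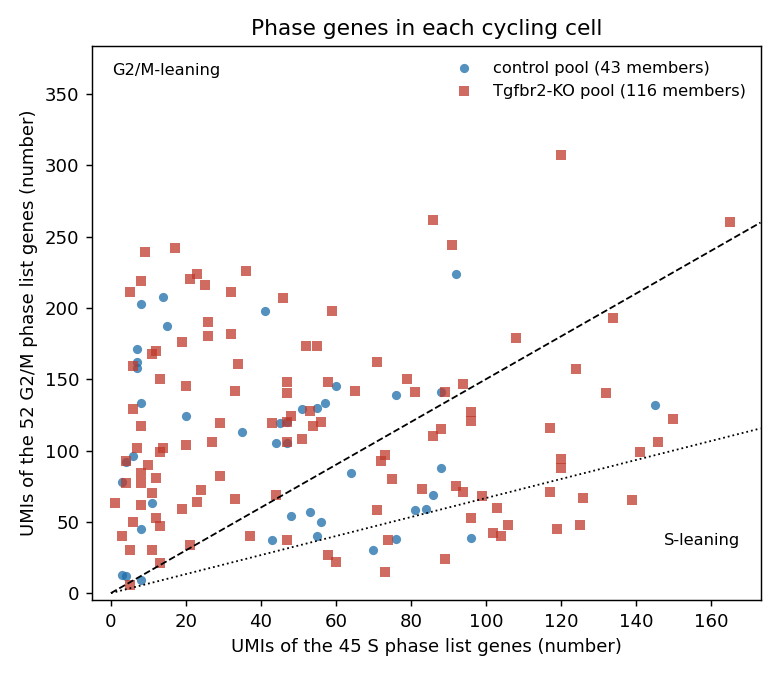
UMIs of the 52 G2/M genes (vertical axis) against UMIs of the 45 S phase genes (horizontal axis) in each cycling cell, 43 of the control pool (circles) and 116 of the Tgfbr2-KO pool (squares). Cells above the dashed line are G2/M-leaning and cells under the dotted line S-leaning; 105 members lie above and 18 below, with members of both pools in each range.

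Cells rich in S phase RNA also stood outside the rule. With at least 47 UMIs of the S list, the median of the members, there were 5 control and 27 Tgfbr2-KO cells among the others, beside 22 and 61 members. With at least 30 UMIs there were 8 and 57 others (0.432% and 2.23% of them), beside 27 and 71 members. The others with at least 47 S list UMIs had medians of only 2 and 3 rule UMIs and were deep, with medians of 24272 and 19197 UMIs. These counts are not corrected for depth, which was higher in the Tgfbr2-KO pool, so they do not compare the pools and do not show that these cells are in S phase.

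Within the cycling cells the rule genes differed in how they moved with phase. Ube2c stood at 11.6 UPM in S-leaning, 86.4 UPM in intermediate and 576 UPM in G2/M-leaning members, and Cenpf at 20.3, 38.6 and 221 UPM. Cdk1 differed less, with 104, 148 and 203 UPM. Pclaf was highest in the intermediate members, at 516 UPM, with 336 UPM in S-leaning and 289 UPM in G2/M-leaning members. The windows shown above belong to these 3 patterns of Ube2c, Cdk1 and Pclaf.

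Each of the 13 histone genes of the list was lowest in the S-leaning members. Hist1h1b, a linker histone gene, stood at 20.3 UPM in S-leaning members, 509 UPM in intermediate and 431 UPM in G2/M-leaning members. Hist1h2ae and Hist1h2ap, both H2A genes, had no UMI in the 18 S-leaning members and stood at 199 and 207 UPM in the 36 intermediate members. E2f1, a transcription factor that drives replication genes, stood at 110, 97.2 and 16.7 UPM across the 3 classes. E2f2, of the same family, was highest in the intermediate class, with 23.2, 49.4 and 19.0 UPM. Ccnd1, the G1 cyclin, stood at 292, 181 and 110 UPM. Cdkn1a, the CDK inhibitor p21, stood at 414, 803 and 760 UPM. None of these genes was in the 2 phase lists. Whether the S-leaning or the intermediate members were in S phase was not tested.

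Against the other cells, 236 of 3616 tested genes were at least 2-fold higher in the members of both pools (6.53%) and 51 at least 2-fold lower (1.41%). Of the 236, 118 belonged to the cycle lists and 118 did not, and the rule used this contrast, so nothing is read from these counts. Within the control pool alone 10.3% were higher and 4.15% lower, and within the Tgfbr2-KO pool 7% and 2.43%. Among measured genes, 6 of 6 of origin licensing, 8 of 9 of the replication fork and 7 of 7 of nucleotide synthesis were higher. Tk1, thymidine kinase, stood at 124 and 146 UPM in the members of the control and Tgfbr2-KO pools, against 5.30 and 6.0 UPM in the others. Pcna, the sliding clamp, differed less, with 373 and 346 UPM against 118 and 123 UPM. The mitotic lists were higher too, with 14 of 14 kinetochore and checkpoint genes, 15 of 15 spindle and cytokinesis genes and 9 of 9 cohesin and condensin genes. Prc1, which bundles the central spindle, stood at 178 and 145 UPM against 1.34 and 1.54 UPM.

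Regulators of the cycle were mixed. Of 7 measured cyclins and CDKs, Cdk4, Ccnb1 and Ccnb2 were higher in both pools. Ccnd1, Ccnd2 and Ccnd3, the D cyclins that answer growth signals, were not: Ccnd1 stood at 113 and 161 UPM in members and 100.1 and 114 UPM in the others. The CDK4 and CDK6 inhibitors Cdkn2c and Cdkn2d were higher in members, Cdkn2c at 88.2 and 76.5 UPM against 8.88 and 8.83 UPM. Cdkn1a was not, with 750 and 719 UPM in members and 949 and 721 UPM in the others. E2f3 and Tfdp1, which form E2F complexes, were higher.

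Among genes in no cycle list, the highest ratios were those of Pbk, Neil3, Shcbp1, Iqgap3, Melk, Spag5, Sdk1, Cdkn3, Cit, Cenpp, Knstrn and Diaph3. Several of these are known mitotic genes: Pbk and Melk encode kinases of dividing cells, Cit the citron kinase of cytokinesis, and Spag5 and Knstrn spindle proteins. Diaph3, an actin-nucleating formin, stood at 196 and 188 UPM in members and 7.35 and 7.4 UPM in the others, and had UMIs in 36 of 43 and 95 of 116 members.

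Of 10 measured classical monocyte genes, Ly6c2, Plac8, Chil3 and Lyz2 were at least 2-fold lower in the members of both pools. Of all tested genes 1.41% were. Members held 1 and 34 UMIs of Ly6c2 and 3 and 1 of Chil3. Both genes were thus measured only through the other cells, and their direction was largely set by that filter. No member was nearest the monocyte-like cluster, and other cells weighted by the members' states lay closer: Plac8 stood at 1.55 and 133 UPM in members, at 111 and 694 UPM in all other cells and at 7.47 and 266 UPM in the weighted ones. Lyz2, lysozyme, stood at 5296 and 2735 UPM in members and at 13612 and 6183 UPM in the others. Weighting moved Lyz2 little, to 12561 and 5521 UPM. Of 9 CD206+ macrophage genes, Folr2, Cd209f, Cd209g and Gas6 were lower, Folr2 at 24.7 and 58.7 UPM against 138 and 145 UPM. Cd209f and Cd209g, with 12 and 21 and with 3 and 20 UMIs in members, were likewise measured only through the other cells. Of 13 genes of the macrophage core 0 were 2-fold lower in both pools and 0 were higher. In the control pool all 13 were lower in members, by log2 ratios from -1.58 to -0.143 with a median of -0.52. Only Apoe passed 2-fold there. In the Tgfbr2-KO pool the ratios ran from -0.89 to 0.56 with a median of -0.11. C1qa stood at 3697 and 4040 UPM in members and at 4667 and 3973 UPM in the others. A scaling by the trimmed mean of all genes lowered all these ratios by 0.23 (control) and 0.12 (Tgfbr2-KO) on the log2 scale. The reason for this shift was not tested.

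To ask which state a cycling cell resembled, the other cells were clustered without cycle genes, and each member took the cluster held by most of its 15 nearest cells. By the same step 90.4% of the other cells were given their own cluster, and 2 of the 13 clusters were recovered for under 80% of their cells. At least 8 of the 15 neighbours lay in the assigned cluster for 34 of 43 control and 99 of 116 Tgfbr2-KO members. Clusters 0 and 1 carried all 14 markers of CD206+ interstitial macrophages, CD206 being the mannose receptor encoded by Mrc1. Cluster 0 was led by Ednrb, Lyve1, Cd209d, Fcna and Ccl24, and cluster 1 by C6, Cd209f, Cd209g, Ccl8 and Chp2. Clusters 2, 6 and 8 carried 9, 8 and 10 of the 14 CD206- markers. They were led by Mgp and Nes, by Nes and Cd207, and by Cxcl13 and Olfml3. Clusters 10 and 9 carried 7 and 6 of the 14 CD206- markers and were not grouped with clusters 2, 6 and 8. Cluster 2 also carried 6 of 12 structural lung cell genes and 7 of 14 dissociation stress genes, and clusters 6 and 8 carried 0 of each. Cluster 4, with all 26 interferon response genes, was led by Gm15056, Upp1, Ly6i, Ccr7 and Nos2 and had Cxcl9 among its 10 leading genes. The monocyte-like cluster 5, led by genes that include Ace and Hp, carried 16 of 17 classical and 13 of 14 patrolling monocyte markers.

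Cycling control cells were mostly nearest to the CD206- like clusters, a name that stands for marker lists and not for absence of CD206 RNA. Mrc1, which encodes CD206, had a UMI in 36 of 43 cycling control cells (83.7%) and in 83.6% of the other control cells. After thinning to 3000 UMIs these shares were 48.8% and 68.9%. Of the 43, 29 (67.4%, 51.5 to 80.9%) were nearest to the 3 CD206- like clusters, which held 46.0% of the other control cells. The clusters of both CD206+ like states together held 5 cycling control cells of 404 (1.24%, 0.403 to 2.86%), against 29 of 881 in the CD206- like clusters (3.29%, 2.22 to 4.69%). Of 261 control cells in cluster 3, led by the fibronectin gene Fn1 and by Il23a, 1 was cycling (0.383%, 0.00970 to 2.12%).

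Cycling Tgfbr2-KO cells fell in 11 clusters and cycling control cells in 10. As the clusters were grouped, the largest Tgfbr2-KO group was nearest the Ly6i and Cxcl9 cluster, with 33 of 116 (28.4%, 20.5 to 37.6%). That cluster held 26.5% of the other Tgfbr2-KO cells. The CD206- like clusters took 29 (25.0%), against 21.6% of the others, and cluster 1, of the CD206+ kind, took 23 (19.8%), against 16.0%. A further 15 (12.9%) were nearest cluster 10, led by Tgfb3, Cd72, Dnase1l3, Zmynd15 and Fcgr4, which held 7.51% of the others. Cluster 10 carried 7 of the 14 CD206- markers, and cluster 9, which took 10 members (8.62%), carried 6. Which Tgfbr2-KO group is largest thus depends on the grouping of clusters, made after they were seen. The share of cycling cells among all Tgfbr2-KO cells of a state was thus 4.64% (3.22 to 6.46%) in the Ly6i and Cxcl9 cluster, 4.98% (3.36 to 7.08%) in the CD206- like clusters and 7.25% (4.11 to 11.7%) in cluster 10. Of the CD206+ like clusters, cluster 1 had 23 cycling cells of 432 (5.32%, 3.40 to 7.88%) and cluster 0 had 2 of 202 (0.99%, 0.120 to 3.53%). These intervals overlap. In cluster 9, led by Cpb2 and C9, 10 of 96 Tgfbr2-KO cells cycled (10.4%), but only 66.1% of its own cells were given back to it by their neighbours.

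The monocyte-like cluster held no cycling cell of either pool, 0 of 39 control and 0 of 192 Tgfbr2-KO cells. The exact upper bounds of these shares were 9.03% and 1.90%. Its median depth, 8751 and 9515 UMIs, was between that of the CD206- like cells, 6983.5 and 7266 UMIs, and that of the Tgfbr2-KO cells of the Ly6i and Cxcl9 cluster, 15023 UMIs.

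**Figure D3:**
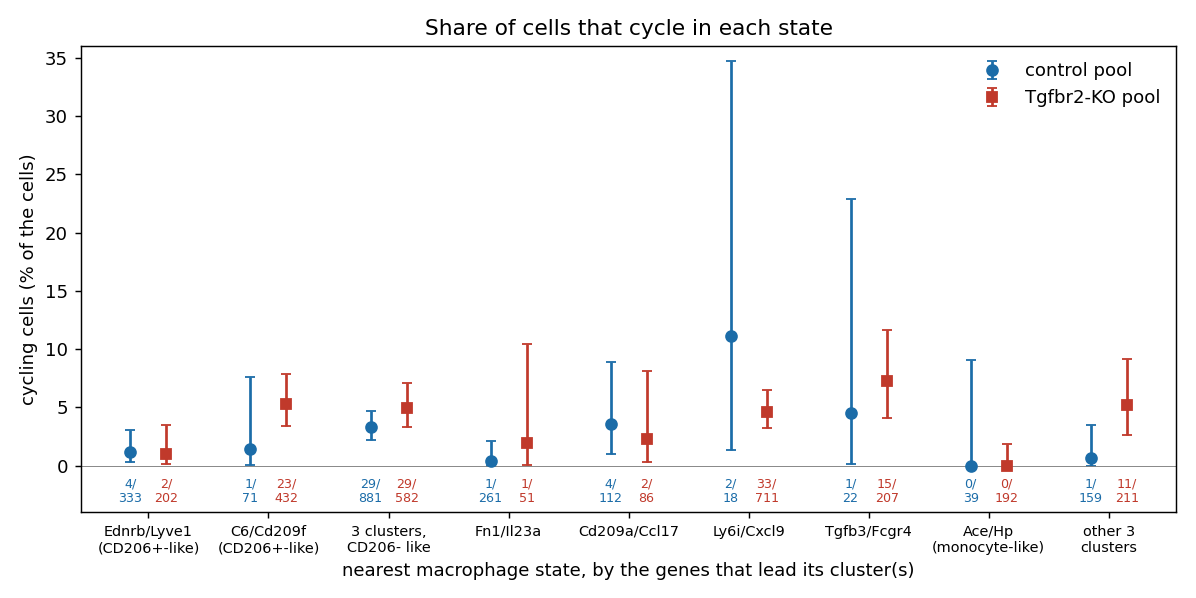
Percent of the cells of each state that cycle (vertical axis) for the control pool (circles) and the Tgfbr2-KO pool (squares), with exact 95% intervals as bars and cycling cells over all cells under each point. The intervals of the pools overlap in every state, the monocyte-like cluster has no cycling cell, and the point at 11.1% rests on 2 of 18 control cells.

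Of the 9 clusters with at least 50 cells of each pool, the Tgfbr2-KO share of cycling cells was nominally higher in 7 and lower in 2. It was 5.32% against 1.41% in cluster 1, 10.4% against 1.12% in cluster 9, 5.45% against 1.80% in cluster 8 and 1.96% against 0.383% in cluster 3. The intervals of the pools overlapped in each of these. In the CD206- like clusters together it was 4.98% against 3.29%, with overlapping intervals, and the same number of cells, 29, cycled in each pool. The lower values were those of cluster 0, with 0.99% against 1.20%, and of cluster 7. In cluster 7, led by Cd209a, Ear2 and Ccl17, it was 2.33% (2 of 86) against 3.57% (4 of 112). Weighted to the cluster sizes of the control pool, the Tgfbr2-KO shares gave 3.82% against the control pool's 2.27%. The reverse weighting gave 4.57% for the control shares, a value that rests on the 2 cycling cells among only 18 control cells in the Ly6i and Cxcl9 cluster. Over the 9 clusters named above, Tgfbr2-KO shares on control sizes gave 3.86% against 2.20%, and control shares on Tgfbr2-KO sizes gave 2.07% against 4.51%.

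Genes that part the pools also shape the clusters, so the cells were clustered again with 378 such genes left out. A cluster led by Saa3, Upp1, Nos2, Gm15056 and Ly6i then held 3 cycling cells of 331 in the Tgfbr2-KO pool (0.906%). One led by Ccr7, Tex2 and Clec9a held 38 of 489 (7.77%), and 4 of 27 in the control pool (14.8%). Cycling control cells were most often nearest a cluster led by Mmp13, Hspa1a and Adgrl3, with 10 of 272 (3.68%), where 22 of 327 Tgfbr2-KO cells cycled (6.73%). A cluster led by Cd209g, Cd209f and Cd209d held 4 cycling cells of 264 in the Tgfbr2-KO pool (1.52%) and 0 of 100 in the control pool. Another, led by Ifit3, C6 and Ccl8, held 4 of 128 (3.125%) and 0 of 58. The monocyte-like cluster, led by Ace, G0s2 and Pglyrp1, held no cycling cell here, with 0 of 39 and 0 of 142. It is not the same set of cells: of the Tgfbr2-KO cells that were monocyte-like before, 38 now lay in the cluster led by Saa3 and 15 in the cluster led by Ccr7, which hold cycling cells.

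Several genes that mark a state were lower in its cycling cells than in its other cells, and others were level. In the Ly6i and Cxcl9 cluster of the Tgfbr2-KO pool, Saa3, an acute-phase gene, had 0 UMIs in the 33 cycling cells (0 UPM, up to 5.00 UPM at the upper Poisson bound) and 132 UPM in the 678 others. Upp1, uridine phosphorylase, stood at 1.35 and 70.0 UPM, and Ly6i at 63.7 and 564 UPM. The monocyte gene Ly6c2 stood at 25.7 UPM in the cycling cells, against 342 UPM. Cxcl9, a chemokine for CXCR3+ lymphocytes, differed less, with 1469 and 3338 UPM, and was found in 29 of 33 and 580 of 678 cells. The interferon-induced gene Ly6a differed less still, with 797 and 931 UPM. H2-Ab1, an MHC class II gene, stood at 10136 and 10943 UPM and C1qa at 2726 and 2929 UPM. Retnla ran the other way, with 1161 UPM in cycling and 194 UPM in other cells, but came from only 6 of the 33 cells.

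The CD206+ like cluster 1 of the Tgfbr2-KO pool had 23 cycling cells, and the genes given here were chosen after their values were seen. The lectin gene Cd209f stood at 18.7 UPM in cycling and 527 UPM in the other cells, Cd209g at 12.5 and 221 UPM, and the folate receptor gene Folr2 at 178 and 544 UPM. The chemokine genes Ccl8 and Cxcl13 stood at 1582 and 140 UPM in cycling cells and at 5720 and 1165 UPM in the others. Mrc1 differed less, with 1176 and 1758 UPM, and Maf, a transcription factor of resident macrophages, stood at 449 and 506 UPM.

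Genes of the CD206- like clusters were chosen likewise. In the control pool Cd74, the invariant chain, stood at 12919 UPM in the 29 cycling and 32326 UPM in the other cells, and H2-Ab1 at 4397 and 11666 UPM. Among Tgfbr2-KO cells they stood at 23958 and 33430 UPM (Cd74) and at 8816 and 12248 UPM (H2-Ab1). Mmp12, macrophage elastase, stood at 240 and 723 UPM among control cells and at 452 and 901 UPM among Tgfbr2-KO cells. Col14a1 was about level in both pools, with 235 and 228 UPM in control cells and 181 and 189 UPM in Tgfbr2-KO cells. Cd207, langerin, was higher in the cycling control cells, at 196 against 73.1 UPM, but 46 of its 81 UMIs came from 1 cell, and without that cell it stood at 89.3 UPM. In the Tgfbr2-KO cells it stood at 34.7 UPM in cycling and 62.4 UPM in other cells. The median UMIs of cycling cells over those of other cells were 1.45 in the Ly6i and Cxcl9 cluster, 1.56 in cluster 1, and 1.82 (control) and 1.96 (Tgfbr2-KO) in the CD206- like clusters, and the part of the assignment by nearest cells in these differences was not tested.

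**Figure D4:**
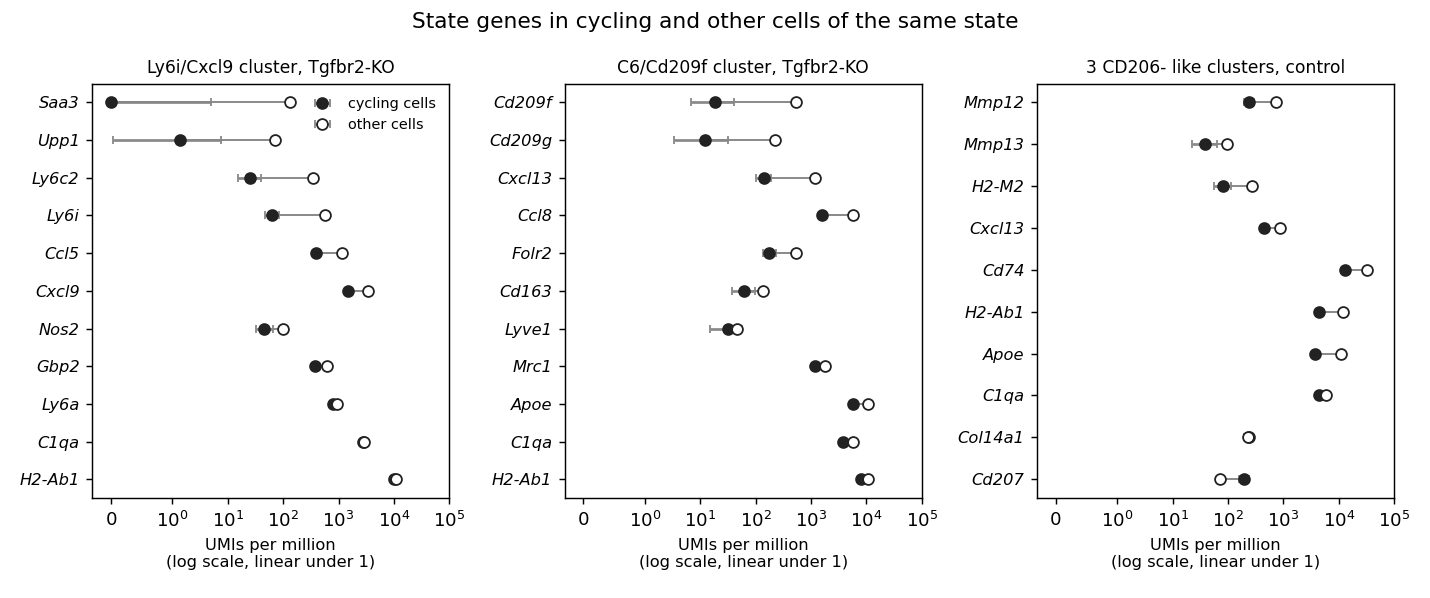
Level of state genes in UPM (horizontal axis, log scale that is linear under 1) in cycling cells (filled) and in other cells (open) of the same state and pool, with exact 95% Poisson intervals. Saa3, Upp1, Ly6i, Cd209f and Cd209g lie far lower in cycling cells, while Ly6a, C1qa and Mrc1 lie close together.

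Between the pools, the targeted gene itself was found in the cycling cells of both. Tgfbr2 had 117 UMIs in 38 of 43 control members (181 UPM) and 330 UMIs in 102 of 116 Tgfbr2-KO members (159 UPM). UMIs of a 3′ library come from the end of the transcript, and the labels do not say which exon is floxed, so this level does not check the deletion.

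Over all members, few phase genes passed 1.5-fold between the cycling cells of the pools. Of 1790 tested genes, 161 were at least 1.5-fold higher in Tgfbr2-KO than in control members (8.99%) and 158 lower (8.83%), with a median log2 ratio of -0.0019. The 8 rule genes chose the members of both pools by their sum, so their levels are a description. Mki67 stood at 577 UPM in control members (520 to 639) and 471 UPM in Tgfbr2-KO members (442 to 502), and Top2a at 642 (582 to 707) and 562 UPM (530 to 595). Pclaf stood at 297 UPM and 365 UPM. Of 11 measured S phase genes 0 passed in either direction, and of 22 G2/M genes 2 were lower, Cks2 and Ckap2l, which is near the background share. Cks2, a CDK-binding subunit, stood at 373 and 220 UPM. Among the members nearest the CD206- like clusters, 1 S phase gene was higher and 2 lower, 1 G2/M gene was higher and 0 lower, and 2 of 3 replication fork genes were lower, where 14.9% of tested genes were lower. Of 4 cyclins and CDKs 2 were higher there, where 9.41% of tested genes were, and 0 over all members. Without the members nearest the Ly6i and Cxcl9 cluster 0 S phase and 0 G2/M genes passed.

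The states of the pools marked their cycling cells. Of 7 measured interferon response genes, 6 were higher in the Tgfbr2-KO members, where 8.99% of all tested genes were. Cxcl9, Ly6a, Gbp2, Irf1 and Ifitm3 were among the 6, and the list median was 2.66 on the log2 scale. Cxcl9 had 3 UMIs in 43 control members (4.64 UPM) and 1644 UMIs in 57 of 116 Tgfbr2-KO members (791 UPM), a ratio of 170 (58.2 to 827), which is 7.41 on the log2 scale. With each member thinned to 5000 UMIs the log2 ratio was 5.41, and 112 of the 161 higher genes were called again. Ly6a, a surface protein of the Ly6 family, stood at 6.19 and 397 UPM. Gbp2, a guanylate-binding protein, stood at 4.64 and 220 UPM. Over the other cells of the pools, which are different cells of the same mice, the log2 ratios were 5.16 for Cxcl9, 5.98 for Ly6a and 3.94 for Gbp2.

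Most of these genes also differed among members of like state. Among the 29 control and 29 Tgfbr2-KO members nearest the CD206- like clusters, a comparison chosen after seeing the data, 13, 12 and 4 control and 11, 9 and 9 Tgfbr2-KO members were nearest clusters 2, 6 and 8. There Cxcl9 stood at 2.42 and 382 UPM and Gbp2 at 2.42 and 107 UPM. Cxcl10, another interferon-induced chemokine, ran the other way there, with 712 and 498 UPM, and stood at 568 and 679 UPM over all members. Fcgr4, an activating Fc receptor, stood at 14.5 and 178 UPM there and at 12.4 and 203 UPM over all members. Lyz1, the second lysozyme gene, stood at 12.1 and 526 UPM there and at 37.1 and 690 UPM over all members. Lyz1 and Lyz2 are near-identical copies, so reads may be split between them, and LyzM-Cre sits in the Lyz2 locus. Lyz2 itself stood at 5296 UPM in control and 2735 UPM in Tgfbr2-KO members.

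Retnla, Plac8 and Ccl8, among the 12 highest genes, depended on which members were compared or came largely from few cells. Retnla, a gene of alternative activation, had 0 UMIs in control members and 1510 in 15 Tgfbr2-KO members, and 558 of the UMIs came from 1 cell. Plac8, known from monocytes, had 1 UMI in control and 277 UMIs in 24 Tgfbr2-KO members, but none in either pool among the members nearest the CD206- like clusters. Ccl8, a chemokine, stood at 111 and 1030 UPM over all members, while its log2 ratio was -0.82 in the CD206- like members. Ccl5, Cd274 and Ifitm3 were also among the 12 highest, and 232 of the 652 Ccl5 UMIs in Tgfbr2-KO members came from 1 cell. Cd274, which encodes PD-L1, stood at 18.6 and 127 UPM.

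Target genes of TGF-beta were lower in the cycling cells of the Tgfbr2-KO pool. Of 19 genes of the list 11 were measured, with at least 100 UPM in 1 pool, a filter that all tested genes had to pass. Of these 11 genes 6 were at least 1.5-fold lower (Pmepa1, Skil, Thbs1, Id3, Rgcc and Kazn) and 0 higher. Over all 1790 tested genes 8.83% were lower and 8.99% higher. The list median was -0.76 on the log2 scale. Without the members nearest the Ly6i and Cxcl9 cluster it was -0.37, with 5 genes lower and 0 higher. Without the cell with most UMIs of each gene it was -0.47, with 4 genes lower and 1 higher. Skil, a feedback inhibitor of Smad signalling, stood at 501 UPM in control and 263 UPM in Tgfbr2-KO members. Pmepa1, another feedback inhibitor, stood at 238 and 115 UPM, and Rgcc, a regulator of the cell cycle, at 119 and 25.0 UPM. Rgcc thus passed the filter only through the control pool and could be called lower but not higher. How many other genes of the list did so was not counted. Of the 77 Rgcc UMIs in control members, 30 came from 1 cell. Among the members nearest the CD206- like clusters, Pmepa1 stood at 305 and 164 UPM and Thbs1, thrombospondin 1, at 187 and 30.1 UPM. Rgcc differed less there, at 55.7 and 39.4 UPM. Of the 11 genes 4 were lower among these members, where 14.9% of tested genes were. Among the other cells 6 of 12 measured genes of the list were lower too, where 9.82% of 1640 tested genes were, and Thbs1 was higher, with 74.9 UPM in control and 218 UPM in Tgfbr2-KO cells. Part of this list was known from the same cells before, so its direction is not independent evidence.

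Other genes lower in Tgfbr2-KO members included Sema3c, Cd207, Fgf13, Chst11, Il1a, Emp1, Magi3, Cxcl13, Itgav and Abcc1. Itgav, the integrin alpha V chain that takes part in the activation of latent TGF-beta, stood at 518 UPM in control and 156 UPM in Tgfbr2-KO members, and at 688 and 255 UPM in the CD206- like members. Emp1, a membrane protein, stood at 416 and 98.6 UPM, with UMIs in 37 of 43 and 51 of 116 members. All 69 UMIs of Sema3c came from 1 control cell, and its log2 ratio in the other cells was 2.59, in the opposite direction. In control members, 46 of the 87 UMIs of Cd207 and 130 of the 305 UMIs of Cxcl13 came from 1 cell each. Cxcl13 was higher in the Tgfbr2-KO pool by 0.17 on the log2 scale in the CD206- like members.

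**Figure D5:**
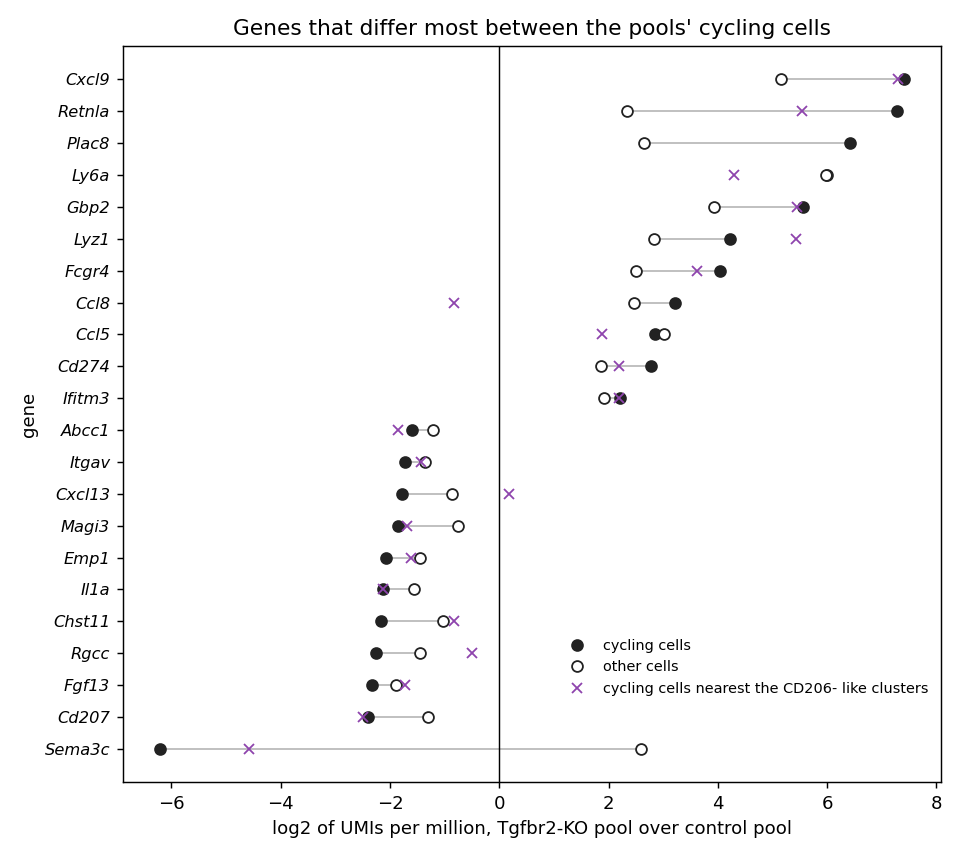
Log2 ratio of the Tgfbr2-KO pool over the control pool (horizontal axis) for genes among the 12 highest and 12 lowest of the cycling cells, in cycling cells (filled circles), other cells (open circles) and the cycling cells nearest the CD206- like clusters (crosses; none for Plac8, which has no UMI there). Cycling and other cells lie on the same side of 0 for every gene shown except Sema3c, and the crosses lie on the other side for Ccl8 and Cxcl13.

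Metabolic and antigen presentation genes were counted in the same way. Of 10 measured glycolysis genes Aldoa and Pkm were higher in Tgfbr2-KO members, with a list median of 0.17. Of 15 genes of mitochondrial respiration Cycs was higher, with a median of 0.08. Over all 1790 tested genes 8.99% were higher, so nothing is read from counts of 1 or 2 genes. Without the members nearest the Ly6i and Cxcl9 cluster, 0 genes of either list were higher. In the other cells of the pools 9 of 11 glycolysis genes and 5 of 15 respiration genes were higher in Tgfbr2-KO cells, with list medians of 0.82 and 0.53, where 13.2% of tested genes were higher. The difference between cycling and other cells in this was not tested. Of 6 MHC class II genes 0 passed 1.5-fold over all members, with a median of 0.47. Among the members nearest the CD206- like clusters all 6 were higher in the Tgfbr2-KO pool, with a median of 0.90. There 9.41% of 1817 tested genes were higher. Cluster 8, which carried 4 of 9 MHC class II genes, took 4 of these control and 9 of these Tgfbr2-KO members. The part of this make-up in the difference was not tested. Of 12 genes of the macrophage core Fcgr1 and Maf were higher over all members, where 8.99% of tested genes were, with a list median of 0.12. Maf stood at 91.3 UPM in control and 177 UPM in Tgfbr2-KO members, and Fcgr1, which encodes the CD64 used in the sort, at 82.0 and 181 UPM.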

How the data were processed

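One single-cell RNA library and 1 hashtag library of the same cells were used. Build GRCm38, Seurat 5.1.0 and Cell Ranger 8.0 are listed in the submitters' processing notes, without an annotation version. The deposited matrix holds counts, UMIs per gene and barcode, with no normalization or cell filter. In the hashtag table, per the file headers, each called cell has the fraction of posterior probability of its assignment, and hashtag columns that the values show to be the log10 of the deposited count plus 1. Other deposited columns hold names.

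Cells assigned to B0301 or B0303 with at least 1000 UMIs, 500 genes and at most 10% mitochondrial UMIs were kept. Hashtag multiplets were left out, and 102 doublets within a hashtag are expected among 4671 assigned cells. Total UMIs of the members were 646526 (control) and 2079207 (Tgfbr2-KO). Values are UMIs summed over a group per 1000000 gene UMIs (UPM). Intervals are exact at 95%: Clopper-Pearson for shares, Poisson for levels and conditional binomial for ratios. UMIs and cells were treated as independent, and differences between mice are not covered.

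Genes were tested between pools with at least 50 UMIs and 100 UPM in 1 pool and called at 1.5-fold, and against other cells with at least 50 UMIs in members or 500 in others and 50 UPM, called at 2-fold in both pools. Other cells were clustered (scanpy 1.11.5) on 2000 variable genes without cycle, mitochondrial, ribosomal and sex-linked genes, with 30 components, 15 neighbours and a Leiden resolution of 0.8. A marker was counted for a cluster with at least 10 UPM there and a log2 ratio to the remaining cells above 0.5. CD206+ like, CD206- like and monocyte-like clusters were grouped by markers after the clusters had been seen, and other clusters are called by leading genes. The fold calls were tested on simulated data.

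The members and lists were chosen with earlier results of these data known. Named are the 8 rule genes, list members as examples, the 12 highest and 12 lowest ratios of each contrast (outside the cycle lists against other cells) and leading genes of clusters. Genes named within a state or by phase were chosen after their values were seen. Alternatives were the rule's threshold, thinning, cell filters, scaling, phase cuts, clustering settings and subsets of members. A few genes that these rules name are not reported here.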

Additional observations from a re-analysis of the deposited data

Results flagged for a closer look

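Among 95 cells that the hashtags called multiplets and that passed the cell filter, 8 met the rule for cycling cells, which is 8.42% (exact interval 3.71 to 15.9%). These cells entered no comparison. Each multiplet holds more than 1 cell, and the rule counts raw UMIs. The share of multiplets therefore cannot be compared with the 3.48% of the cells with 1 hashtag. The 8 had a median of 24086.5 UMIs, against 16370 in the other multiplets. Of 44 cells with no hashtag 0 met the rule, and of 65 unassigned cells 1 did.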

How the results depend on the processing

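No paired analysis was possible because each genotype is 1 pool with no replicate numbers. The ratio of the shares of cycling cells stayed above 1 under all 11 alternatives, from 1.73 (thinned to 5000 UMIs) to 2.25 (threshold of 5 UMIs); it was 1.94 without the Ly6i and Cxcl9 cluster, chosen after seeing the data like the other subsets of members. A single phase cut at 0.5 put 76.7% of the Tgfbr2-KO members in the G2/M-leaning class. At a clustering resolution of 0.4 the most frequent nearest state held 48.8% of the control members and 43.1% of the Tgfbr2-KO members, where clusters are coarser by construction. In members nearest the CD206- like clusters, 270 genes were lower in the Tgfbr2-KO pool against 158 over all members, and 94 were shared; Ccl8 (-0.82) and Cxcl13 (0.17) changed sign there, and the cause was not tested. Scaling by the trimmed mean gave 78 genes lower in members than in other cells of both pools against 51. Ifitm6 stood at 0.35 against other cells weighted by state, since the floor of 3 UMIs for control members lies above the level of those cells. Of the 24 genes named between the pools, 20 stayed at least 1.5-fold the same way under every alternative that gave a value. Members of the most frequent state alone were not compared, because that state differs between the pools and held 13 control members. Free RNA could make up at most 0.119% (control) and 0.758% (Tgfbr2-KO) of the UMIs. The 43 control members limit what could be detected in that pool.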

Other observations

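Sdk1, a cell adhesion gene of the immunoglobulin superfamily known from the nervous system, stood apart among the genes of cycling cells. It stood at 291 UPM in control and 176 UPM in Tgfbr2-KO members and at 3.90 and 3.11 UPM in the other cells. Its UMIs came from 26 of 43 and 54 of 116 members, and its level across the phase classes was 26 UPM in S-leaning, 125 UPM in intermediate and 268 UPM in G2/M-leaning members. Spn, the leukosialin gene CD43, which marks patrolling monocytes, was the only gene of its list that was 2-fold higher in the members of both pools, at 80.4 and 97.6 UPM against 22.0 and 41.7 UPM. The 14 genes of dissociation stress summed to 10860 and 10375 UPM in members and to 15642 and 12212 UPM in the others, and 0 of the 14 were 2-fold lower in both pools.

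Over the S and G2/M lists, promoter windows differed in their letters. CHR letters stood in 38.0% of 50 windows of G2/M list genes and 17.9% of 39 windows of S list genes, and E2F letters in 4% and 25.6%. CCAAT stood in 74% and 66.7% of them.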
